A study of Caenorhabditis elegans with 4 samples.

Results

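Peaks of the meiotic protein ZHP-3 near the chromosome ends of Caenorhabditis elegans were taken as all peaks of the series-level list on chromosomes II, III, IV, V and X whose midpoint lies within 300 kb of either end (WormBase WS220 coordinates). There were 373 such peaks among the 11843 of the list and the 9770 of these 5 chromosomes. They fall at 10 ends, with 170 peaks at left ends and 203 at right ends, and position alone chose them. Chromatin immunoprecipitation with sequencing (ChIP-seq) was done on adult hermaphrodites of strain fem-2(b245), genotype fem-2(b245)III, kept at 20 °C, with the affinity-purified rabbit polyclonal antibody ZHP-3 SDQ3956. The stage label is a young adult with a germline, while the growth protocol describes gravid adults, and whole worms were ground, so chromatin of somatic cells is included. All 4 libraries, namely 2 of ChIP DNA and 2 of input DNA, share this strain and stage. There is therefore no second condition and no strain without ZHP-3. Nothing in the labels says whether the ChIP replicates were separate cultures, so the spread between them may be technical. The series-level list, called the combined list here, and the list of each ChIP replicate give a start, an end and a score per peak. Read depth behind the peaks is not known, and input DNA was not analysed here.

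ZHP-3 is a RING-finger protein of the synaptonemal complex, the protein axis that joins paired homologous chromosomes in meiosis, and it is needed for crossovers. In the worm each chromosome also carries a pairing centre towards one end, a region rich in short repeats that recruits a zinc-finger protein (HIM-8 on X, ZIM-1, ZIM-2 or ZIM-3 on the autosomes) and through it holds the chromosome at the nuclear envelope, where homologues pair. Pairing centres lie towards the right ends of II and III and the left ends of IV, V and X. The very tips are telomeres, arrays of a short repeat of which an assembled chromosome shows only a part.

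Between the 10 ends the number of combined peaks ranged from 23 to 57. Densest was the right end of III, with 57 peaks or 190 per Mb (exact Poisson 95% interval 144 to 246, counting error only). It was followed by the right end of II, with 51 peaks or 170 per Mb (127 to 224). At the left end of X there were 41 peaks, at its right end 40, at the left end of III 38 and at the left end of IV 37. Peaks numbered 32 at the right end of V, 29 at the left end of II and 25 at the left end of V. Sparsest was the right end of IV, with 23 peaks or 76.7 per Mb (48.6 to 115). The intervals of any neighbours in this order overlap. Those of the right ends of II and III lie wholly above those of the right end of IV and the left end of V (53.9 to 123). That of the right end of III also lies above that of the left end of II (64.7 to 139).

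The right end of III also led in both replicate lists, followed by that of II, which tied with the left end of X in replicate 2. It held 36 peaks in replicate 1 and 48 in replicate 2, or 140 ± 28.3 per Mb (SD, n = 2), and the right end of II held 24 and 26, or 83.3 ± 4.7 per Mb. The left end of X had 19 and 26 peaks, and the left end of IV 16 and 24. At the left ends of III and V the counts were 16 and 23, and 16 and 18. Counts were 15 and 21 at the right end of V, and 13 and 15 at the left end of II. At the right end of IV, 11 and 14 peaks were listed. As a ratio the replicates differed most at the right end of X, with 10 peaks in replicate 1 and 22 in replicate 2, or 2.20, and replicate 2 gave more peaks at 10 of 10 ends, as it did in the interior.

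**Figure D1:**
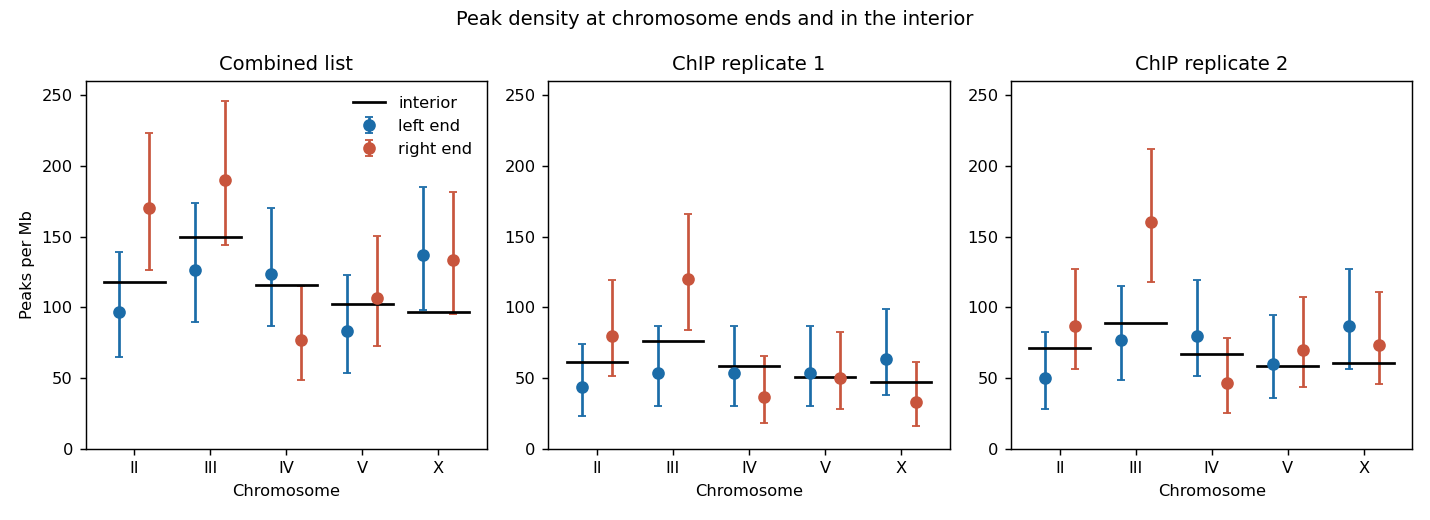
Peaks per Mb at the left (blue) and right (red) 300 kb of each chromosome in the 3 lists, with exact Poisson 95% intervals, and the interior of the same chromosome (black bar). The right end of III is the highest point in every list and the right end of IV lies below its interior in every list.

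The side of each pairing centre was taken from background knowledge, and whether the centre itself lies within the 300 kb was not examined. Ends on that side, called pairing centre ends here, were set against the opposite ends of the same chromosomes. In the combined list they held 211 peaks against 162, or 141 against 108 per Mb. The density was higher at the pairing centre end of II (170 against 96.7 per Mb), III (190 against 127) and IV (123 against 76.7). On X the ends differed by 1 peak, and V went the other way, with 83.3 per Mb at its pairing centre end and 107 at the other. The mean log2 ratio over chromosomes was 0.35 ± 0.50 (SD, n = 5), higher on 4 of 5 chromosomes, with an exact two-sided sign-flip p = 0.188. Over 5 chromosomes this test cannot go below 0.0625, so it cannot reach the threshold of 0.05. The comparison by pairing centre side was chosen with earlier results of these data known. Its p-values, in each list, are therefore descriptive and do not test a prior hypothesis.

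Replicate 1 listed more peaks at the pairing centre end of 5 of 5 chromosomes, 111 against 65 in all, and replicate 2 on 4 of 5, 142 against 95. The mean log2 ratio was 0.72 ± 0.42 (SD over chromosomes, n = 5, exact p = 0.0625, the smallest possible) in replicate 1 and 0.53 ± 0.52 (exact p = 0.125) in replicate 2. Its mean over the replicates was 0.63 ± 0.14 (SD, n = 2). By chromosome, replicate 1 gave ratios of 1.85 on II, 2.25 on III, 1.45 on IV, 1.07 on V and 1.90 on X. In replicate 2 they were 1.73, 2.09, 1.71, 0.86 and 1.18 in the same order. On V the ends thus differed in opposite directions in the replicates, by 16 against 15 peaks in one and 18 against 21 in the other.

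On III the replicate lists cut a wide region into many peaks. From 13584141 to 13599144 near the right end of III, over 15.0 kb, the combined list had 2 peaks, replicate 1 had 10 and replicate 2 had 14. With peaks joined into 1 site where gaps were at most 1000 bp, the right end of III had 23 sites in replicate 1 and its left end 13, and in replicate 2 the numbers were 24 and 16. The lead of the right end of III over that of II was then 23 against 22 sites in replicate 1 and 24 against 22 in replicate 2, and the combined list had 37 at each. Joined sites gave a mean log2 ratio of pairing centre to opposite end of 0.59 ± 0.34 (n = 5, exact p = 0.125) in replicate 1, higher on 4 chromosomes and equal on V. In replicate 2 it was 0.45 ± 0.49 (n = 5, exact p = 0.125), and in the combined list 0.31 ± 0.54 (n = 5, exact p = 0.188), each higher on 4 of 5. This joining was chosen after the data were seen.

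The ratio also changed with the distance taken, which was varied for this ratio in the combined list only. Within 100 kb of the end the mean log2 ratio in the combined list was 0.0057 (n = 5, exact p = 1), and within 500 kb it was 0.15 (exact p = 0.562). By covered bases in place of peak numbers the ratio was 0.81 (n = 5, exact p = 0.125). Of the pairing centre ends 8.33% was covered by combined peaks, and of the opposite ends 4.39%. For replicate 1 these shares were 5.41% and 2.28%, and for replicate 2 they were 6.57% and 3.28%. V went the other way in the combined list, with 3.77% covered at its pairing centre end and 4.15% at the other. In the replicates V gave 3.2% against 2.6% and 3.2% against 3.0%. Broad peaks weigh heavily in covered bases. Of the 41.4 kb of combined peaks at the right end of III, 14902 bp lay in the 2 peaks of its wide region.

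**Figure D2:**
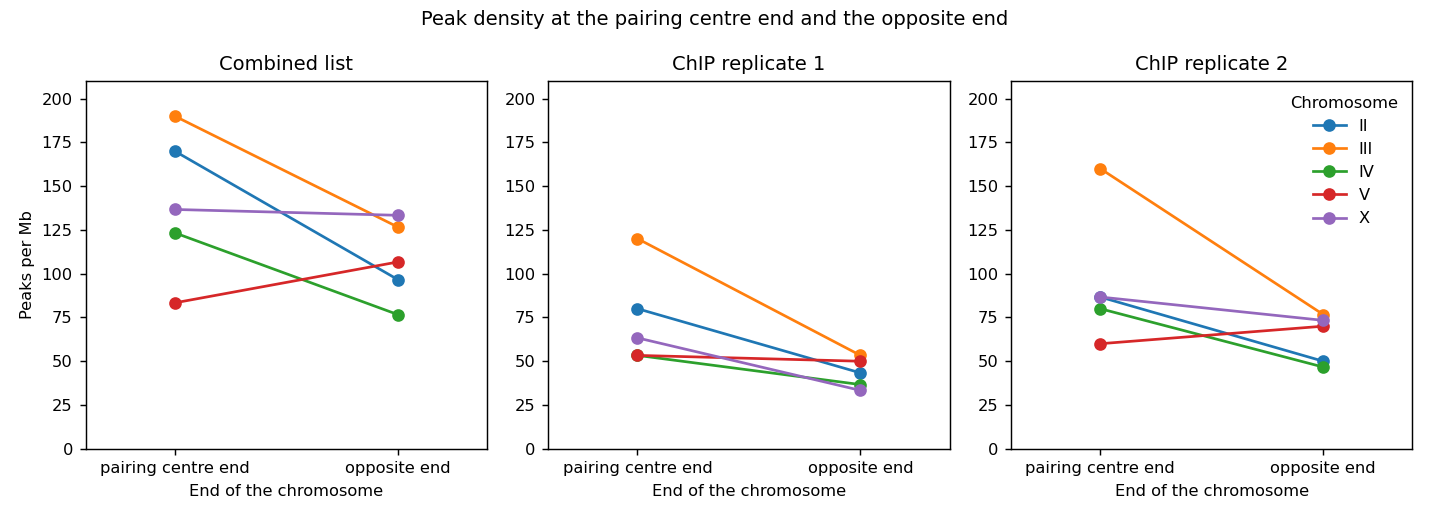
Peaks per Mb at the end on the side of the pairing centre and at the opposite end, with 1 line per chromosome, in the 3 lists. The lines fall from left to right on 4 of 5 chromosomes in the combined list and in replicate 2, and on 5 of 5 in replicate 1.

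Set against the interior of the same chromosomes, the ends as a whole did not differ in density beyond the spread between chromosomes. The ends make up 3.52% of the length of the 5 chromosomes and held 3.82% of their combined peaks, 3.59% of those of replicate 1 and 4.08% of those of replicate 2. This was 124 peaks per Mb at the ends and 114 in the interior in the combined list, with a mean log2 ratio of 0.08 ± 0.27 (n = 5, exact p = 0.625). Replicate 1 gave 58.7 against 57.5 per Mb and a log2 ratio of -0.023 ± 0.21 (n = 5, exact p = 1). Replicate 2 gave 79.0 against 67.8 per Mb and 0.17 ± 0.24 (n = 5, exact p = 0.25).

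Chromosomes differed in this respect. X had 135 combined peaks per Mb at its ends and 96.8 in its interior, a ratio of 1.39. The ratio on X was 1.31 in replicate 2 but 1.02 in replicate 1. II stood at 1.13 in the combined list, 1.01 in replicate 1 and 0.96 in replicate 2. On III the ratios were 1.06, 1.14 and 1.34 in the same order, and 0.995, 0.954 and 0.971 with neighbouring peaks joined into sites, so that joining turned the direction in each list. IV had fewer peaks at its ends in each list, at 0.86, 0.77 and 0.94. V gave 0.93 in the combined list, 1.02 in replicate 1 and 1.12 in replicate 2.

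Left and right ends did not differ in one direction. Left ends had 113 combined peaks per Mb and right ends 135, and the log2 ratio of left to right was -0.21 ± 0.59 (n = 5, exact p = 0.5). II, III and V were denser on the right and IV and X on the left. Within 100 kb of the end the ratio was -0.65 (n = 5, exact p = 0.125). The ratio was -0.10 ± 0.90 (n = 5, exact p = 0.875) in replicate 1 and -0.21 ± 0.75 (n = 5, exact p = 0.562) in replicate 2. On II, III, IV and X the denser side was the same in all 3 lists.

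At the very tips the lists disagreed, and they did so by side. At the left, replicate 2 had a peak with its midpoint within 1000 bp of the end on 5 of 5 chromosomes, replicate 1 on 4 (II, IV, V and X) and the combined list on 3 (II, V and X). The outermost of these peaks on each chromosome began at base 1, except that of V in replicate 2. The left end of II had a second combined peak in this range, from 732 to 930 with a score of 11.7, found in neither replicate. On II the tip peak ran from 1 to 254 in the combined list with a score of 28.4, and the replicate peaks ended at 458 and 451. The tip of V carried a combined peak from 1 to 346 scoring 20.1, with replicate peaks from 1 to 397 and from 4 to 365. On X the combined peak reached from 1 to 331 with a score of 14.2, and the replicate peaks ended at 361 and 354. IV had tip peaks ending at 244 (replicate 1) and 237 (replicate 2) but none in the combined list, whose first peak began at 17252. On III a tip peak from 1 to 215 was found in replicate 2 alone, and the first combined peak began at 14745.

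At the right tips the pattern was the opposite. The combined list had a peak at 5 of 5 right tips, with scores from 7.02 (X) to 17.7 (III), and none of the 5 overlapped a peak of either replicate. Each of them reached past the last base of the WS220 chromosome, by 23 bp on III, IV, V and X and by 3 bp on II. Within 1000 bp of a right end replicate 1 had no peak at any chromosome, and replicate 2 had 1, on IV from 17492653 to 17492979 with a score of 169. On III the last replicate peaks lay just outside that limit, with replicate 1 at 13782141 to 13783063 and replicate 2 at 13782298 to 13783054. On the other 4 chromosomes the last peak of replicate 1 ended 12576 bp (II) to 78190 bp (V) short of the right end.

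**Figure D3:**
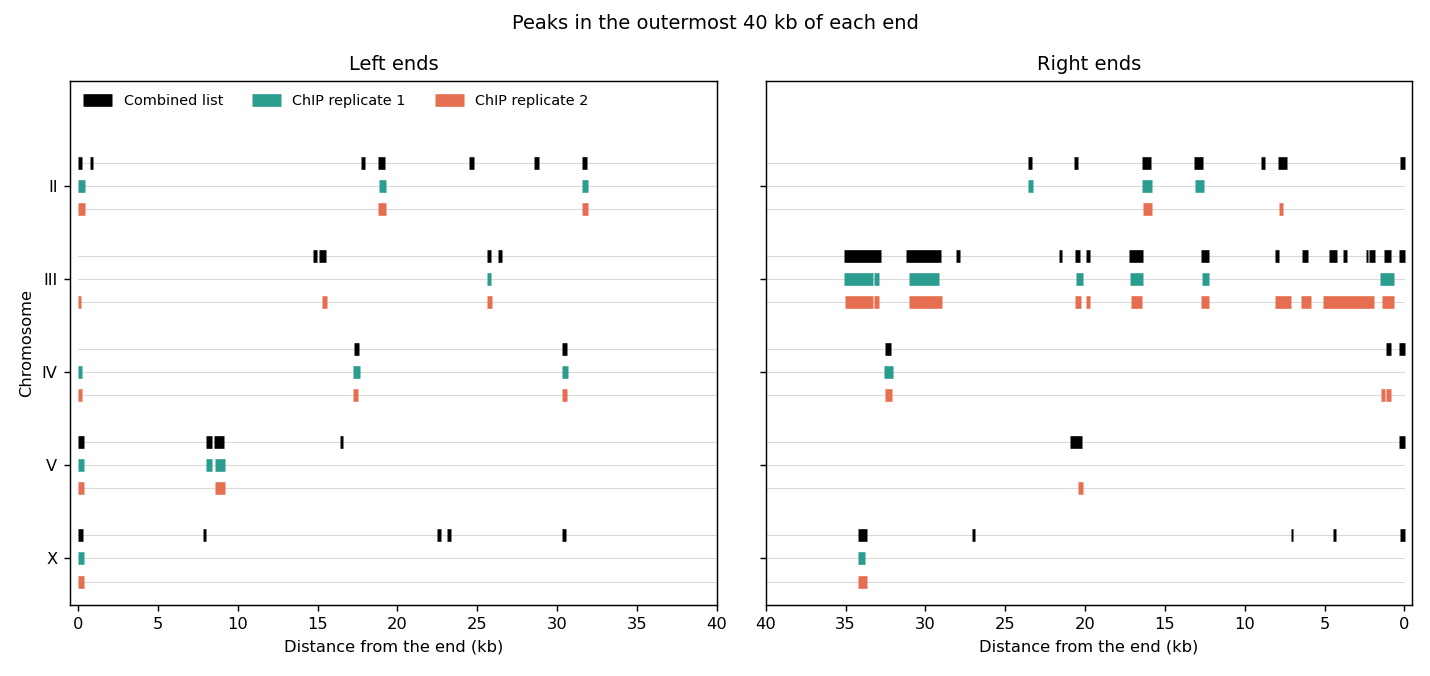
Peaks of the combined list (black), replicate 1 (green) and replicate 2 (orange) by distance from the left or right end in kb, for the outermost 40 kb of each chromosome. At the left tips the replicate lists have a peak within 1 kb of the end on 4 and 5 chromosomes and the combined list on 3. At the right tips the combined list has a peak there on 5 chromosomes and the replicate lists on 0 and 1.

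The left tip peaks were also scored far higher in replicate 2. Replicate scores at the tips were 53.0 and 618 on II, 70.9 and 455 on IV, 231 and 737 on V and 123 and 950 on X. The ratio of replicate 2 to replicate 1 was thus 11.7, 6.42, 3.19 and 7.71. Over the 3816 pairs of interior peaks that overlapped one to one, the median ratio was 1.39 (quartiles 0.99 and 1.95). The ratios of the tips on II, IV and X lay at percentiles 98.6 to 99.4 of those pairs and that of V at 92.3. Beyond 10 kb from an end the 141 pairs had a median ratio of 1.35 (quartiles 0.97 and 1.95). Single pairs among them reached 25.5 on V and 11.4 on X, so ratios of this size were not limited to the tips. The ratio on II rests on a replicate 1 score near the lowest of its list, at percentile 1.53. Neither the depth of the libraries nor the scale of the score is given, so a higher score in replicate 2 cannot be read as more ZHP-3.

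In the outermost 50 kb the right end of III again held the most peaks, with 16 in the combined list, 7 in replicate 1 and 11 in replicate 2, while the left end of IV held 2 combined peaks, the fewest. At the left end of X, replicate 1 listed nothing from 362 to 59122 and replicate 2 nothing from 355 to 47577, both directly after the tip peak. Combined peaks did lie in that stretch. Between neighbouring end peaks of the combined list the widest gap of the 10 ends was on the left end of II, from 162485 to 216446, or 54.0 kb. The widest gap was smallest at the right ends of II and III, at 22.7 and 28.6 kb.

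Along the 300 kb no steady rise or fall towards the end was seen. In 50 kb steps the combined list had 126, 156, 96.0, 114, 138 and 116 peaks per Mb from the tip inwards, and the next steps beyond the limit gave 126 and 74.0. The right ends had 156 and 188 per Mb in the first 2 steps and the left ends 96.0 and 124. Replicate 1 was highest from 150 to 200 kb, with 86.0 per Mb against 52.0 at the tip, and replicate 2 likewise, with 108 against 72.0. That step holds the wide region of III, and the most peaks at a single end in it were 16 in replicate 1 and 20 in replicate 2. The member nearest to the 300 kb limit lay on III from 299340 to 299485 with a score of 4.26. The nearest peak outside it lay on II from 14978056 to 14978261 with a score of 6.05.

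**Figure D4:**
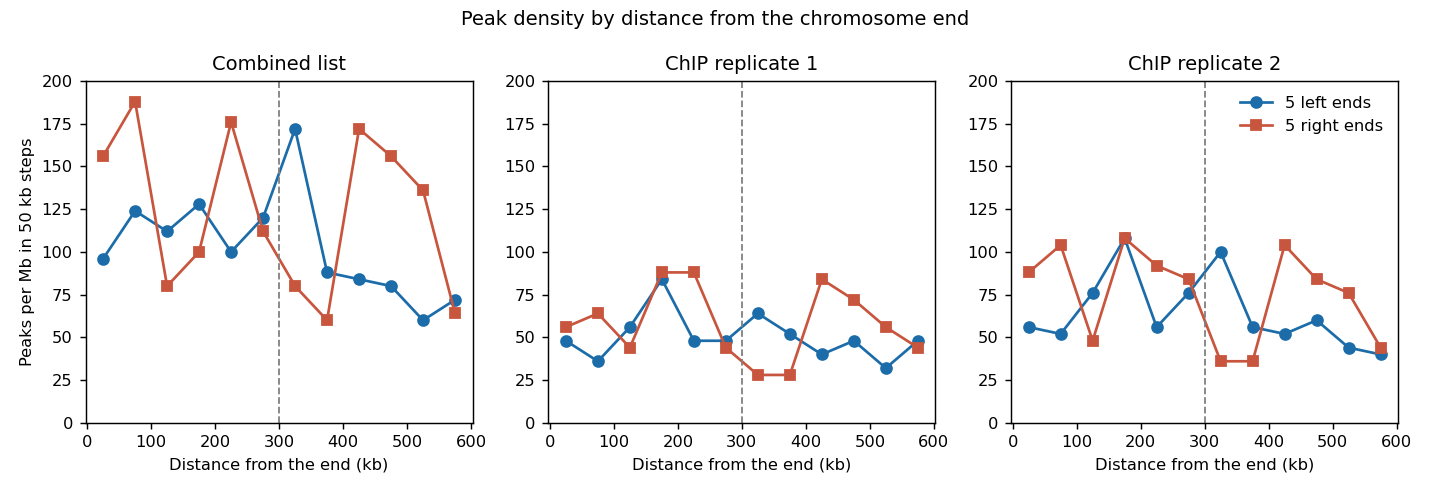
Peaks per Mb in 50 kb steps of distance from the end, summed over the 5 left (blue) and 5 right (red) ends, for the 3 lists, with the 300 kb limit dashed. Values swing from step to step, with 96.0 to 128 per Mb at left ends and 80.0 to 188 at right ends inside the limit in the combined list.

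The share of end peaks found in both replicates was close to that of the rest of the chromosomes. Of the 373 end peaks, 150 overlapped a peak in both replicate lists, or 40.2% (Wilson 95% interval 35.4 to 45.3), against 42.0% of all combined peaks of the 5 chromosomes and 42.03% of those in the interior. A further 60 (16.1%) were found in replicate 2 alone, 12 (3.22%) in replicate 1 alone and 151 (40.5%) in neither. In the interior these shares were 14.7%, 6.44% and 36.8%. The interval of the share in replicate 1 alone, 1.85 to 5.54, lay below its interior value. By chromosome the share in both replicates at the ends minus that in the interior was -1.33 ± 8.59 percentage points (SD, n = 5, exact p = 0.75). It was lower on 4 of 5 and higher on V alone, by 13.3 points. In the outer 100 kb the share was 30.5% (43 of 141, 23.5 to 38.5), and from 100 to 300 kb it was 46.1% (107 of 232, 39.8 to 52.5). The outer share was the lower one on 5 of 5 chromosomes, from 14.8% against 44.4% on X to 41.2% against 57.5% on V. Outer peaks also had a lower median score, 10.1 against 14.1, and among all end peaks the median score was 39.8 for those in both replicates and 5.67 for those in neither. The comparison of the outer with the inner part was chosen after the values were seen. In 50 kb steps the share showed no steady trend. It was 33.3% in the step next to the tip, lowest from 50 to 100 kb at 28.2%, highest from 150 to 200 kb at 54.4% and 36.2% from 250 to 300 kb. In the first step beyond 300 kb it was 30.2%, as low as in the outer 100 kb.

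Single ends ranged widely in this share. The left end of V had the highest, with 15 of 25 peaks in both replicates, or 60.0% (40.7 to 76.6). The right end of X had the lowest, with 10 of 40, or 25.0% (14.2 to 40.2), and the remaining 8 ends lay between 34.8% and 46.9%. The intervals of these 2 ends do not overlap, while those of every other pair of ends do.

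Replicate peaks at the ends mostly had a partner. In replicate 1, 164 of 176 end peaks had a partner in the other list, or 93.2% (88.5 to 96.1), against 86.9% (85.9 to 87.9) in the interior. In replicate 2 this held for 170 of 237 end peaks, or 71.7% (65.7 to 77.1), against 73.7% (72.5 to 74.8). All 10 replicate 1 peaks at the right end of X had a partner, but only 10 of 22 replicate 2 peaks there did. In the combined list 175 of the 176 (99.4%) and 230 of the 237 (97.0%) were present. For interior peaks these shares were 99.7% in replicate 1 and 98.8% in replicate 2. The missing replicate 1 peak was the tip of IV, and the missing replicate 2 peaks included the tips of III and IV.

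Scores at the ends covered almost the whole range of the list. Combined scores of end peaks ran from 1.64 to 159, with a median of 12.0 (quartiles 6.39 and 31.4), and those of interior peaks had a median of 12.6 (5.87 and 32.01). The mean difference of the median log2 score, ends minus interior, was 0.05 ± 0.46 (n = 5, exact p = 0.812). It was 0.27 ± 0.26 (n = 5, exact p = 0.188) in replicate 1, higher on 4 of 5 chromosomes, and 0.08 ± 0.37 (n = 5, exact p = 0.875) in replicate 2. Among end peaks 38, or 10.2%, were in the upper 10% of the combined list by score, against 9.82% in the interior. Between ends the median combined score went from 9.59 (right end of II) to 23.7 (left end of V).

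**Figure D5:**
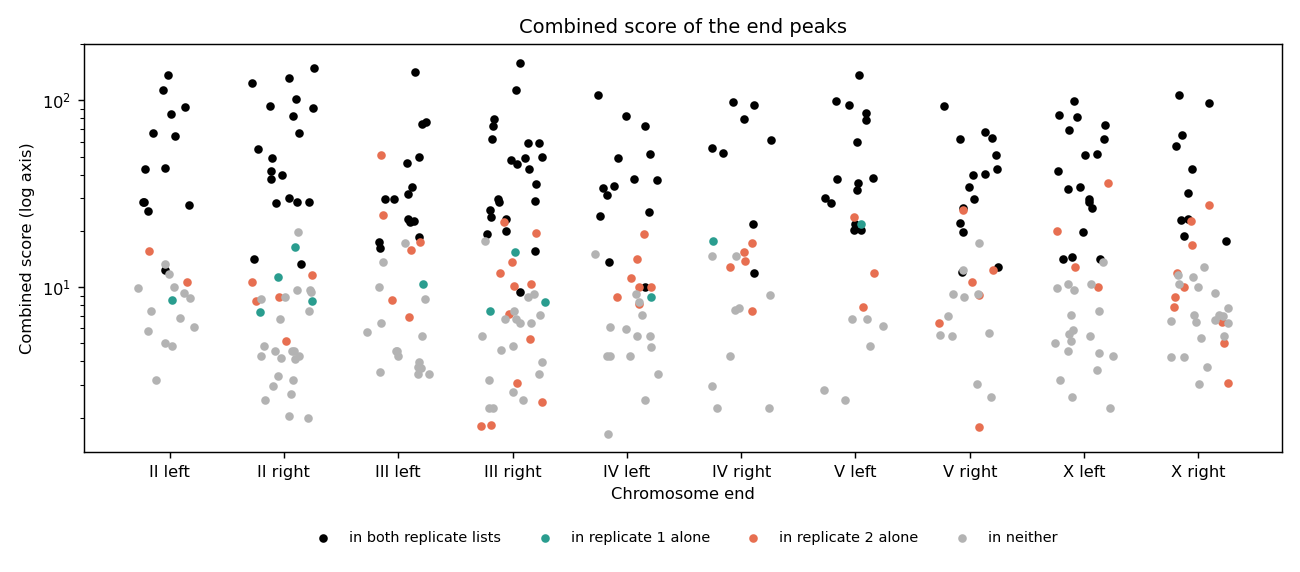
Combined score of each of the 373 end peaks on a log axis, by chromosome end, coloured by the replicate lists in which an overlapping peak is found. Peaks found in both lists (black) make up nearly all of the points above 30, and peaks found in neither (grey) lie below 20.

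The 5 highest-scored end peaks were all found in both replicates and none lay at a tip. The highest, at 159.31, was on III from 13643181 to 13643980, 140 kb from the right end, and ranked 8 in the whole combined list. It was 800 bp wide and was listed at 13643282 to 13644047 with a score of 2934 in replicate 1, and at 13643224 to 13644039 with 3100 in replicate 2. A score of exactly 3100 is shared by many peaks of the replicate lists, so ranks at that value are tied. The second, at 149.21, was a wide peak on II from 15137668 to 15143058, 139 kb from the right end. It scored 3100 in both replicates, where it was 4900 and 4906 bp wide. The other 3, of 767 to 814 bp and so above the upper quartile of end peaks (503 bp), lay on III from 234951 to 235717 (140.93), on II from 155647 to 156460 (136.93) and on V from 126360 to 127137 (136.51). Their replicate scores were 1607 and 2286, 1416 and 2180, and 1180 and 1692.

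On the remaining ends the highest peak scored less in the combined list. The left end of IV reached 106.41, from 126057 to 126788, and the right end of X 106.69, from 17479207 to 17480609. On the left end of X the highest peak lay from 142794 to 143717 with 98.92, although it scored 2988 in replicate 1 and 3100 in replicate 2. The highest peak of the right end of IV, with 97.62, lay from 17461248 to 17461622, 32.4 kb from the end, and was the outermost peak there in replicate 1. At the right end of V the highest peak, with 93.28, lay from 20778043 to 20779137. Of these 10 highest peaks, 9 lay between 126 and 239 kb from their end.

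In the combined list, peak width at the ends was close to that of the interior, at the median and in the share of broad peaks. The median width was 326 bp at the ends and 324 bp in the interior, with a mean log2 difference of 0.0049 ± 0.10 (n = 5, exact p = 1). Peaks of 1000 bp or more numbered 27, or 7.24% of end peaks, against 7.16% in the interior. The pairing centre ends held 19 of the 27, and they held 211 of all 373 end peaks. Whether broad peaks were more frequent there than among end peaks in general was not tested. The widest end peaks, of 8043 and 6859 bp against 11006 bp for the widest interior peak, were the neighbours on III described above, at combined scores of 28.6 and 35.5. In the replicates their strongest parts scored 1482 and 1723 in replicate 1 and 1267 and 1362 in replicate 2. Among the peaks of replicate 1, 13.1% at the ends were 1000 bp or wider, against 9.18% in the interior. For replicate 2 these shares were 9.70% and 9.12%. Median widths were 461 and 452 bp in replicate 1, and 444 and 440 bp in replicate 2.

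The third widest end peak lay on X from 289817 to 295292, 5476 bp wide, with a combined score of 36.1. It had a single counterpart in replicate 2, from 289824 to 295367 with a score of 3100, and none in replicate 1. A similar contrast was seen on III, where the combined run from 62106 to 67390 held 4 peaks and replicate 2 had 5 peaks scoring up to 2600, with none in replicate 1. Broad peaks on X from 109468 to 114273 and near the left end of V were present in both replicates with unequal scores. They were 271 against 3100 on X and 121 against 3100 on V, for replicate peaks that began at 109465 and 264963 in replicate 1. The last 3 regions were picked for their unequal replicate values, after these were seen, and the source of the difference was not tested.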

How the data were processed

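The data were 3 deposited peak lists, which give a first base, a last base and a score for each peak. Per the file headers, coordinates are on WormBase WS220. Scores were set by the authors in the deposited files, on a scale the files do not name, and were compared in value only within a list, or between the replicate lists, whose source column names the same caller. That column names MACS for the replicate lists and MACS v2 for the combined list, per the files, and the submitters' processing notes name BWA and ce10. How the combined list was made, and with which control and threshold, is not stated in the sources at hand.

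Members were chosen by midpoint within 300 kb of an end, with WS220 chromosome lengths. Lists, windows and comparisons were chosen with earlier results of these data known. Densities were peaks per Mb. Chromosomes, not peaks, were the units of the exact two-sided sign-flip tests (32 sign patterns over 5 chromosomes). Peaks overlapped when they shared at least 1 bp. Wilson and exact Poisson 95% intervals reflect counting error alone and take peaks to be independent. Named peaks are the highest and outermost combined peak of each end, the 3 widest, the 5 highest, those next to the limit and the outermost replicate peaks. Alternatives changed the window, score limit, interior, overlap, list and unit counted. Joining of neighbouring peaks, leaving out single chromosomes and the share of peaks in the upper 10% by score were added after the data were seen. Python 3.11.15, numpy 2.4.6, pandas 2.3.3, scipy 1.17.1 and matplotlib 3.10.9 were used, and the density and score steps were tested on simulated data. Gene annotation and sequence of the same build were not used here.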

Additional observations from a re-analysis of the deposited data

How the results depend on the processing

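No sign-flip test over 5 chromosomes can reach 0.05, so only directions can change here. The pairing centre log2 ratio stayed above 0 under all 14 alternatives (0.0057 to 0.81, exact p from 0.0625 to 1). The ends to interior log2 ratio (0.08) fell below 0 without chromosome X, at -0.015, an alternative added after the data were seen. Without replicate 2, which leaves the replicate 1 list alone, it was -0.023, and without replicate 1 it was 0.17. The left to right ratio (-0.21) turned to 0.10 among peaks found in both replicate lists, and was -0.65 within 100 kb (exact p = 0.125) and -0.0031 in the upper 50% by score, against -0.21 without replicate 1 and -0.099 without replicate 2. The score difference (0.05) was -0.24 within 100 kb, and 0.08 and 0.27 without replicate 1 and without replicate 2. The width difference (0.0049) turned to -0.11 within 100 kb, -0.013 within 500 kb, -0.034 in the upper 50% by score and -0.031 without replicate 1, against 0.019 without replicate 2. The share in both replicates (-1.33 points) was 0.22 in the upper 50% by score and -11.8 within 100 kb (exact p = 0.125). Partner shares of end peaks of replicate 1 (93.2%) moved to 87.5% under reciprocal 50% overlap and 88.2% within 100 kb. Those of replicate 2 (71.7%) moved to 65.0%, 60.0% and, in the upper 50% by score, 79.2%. For each change the cause was not tested. No paired analysis was possible because only ChIP peak lists were used, with 1 list for each replicate number. Without read depth, an end peak that a list lacks may still lie under its score limit.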
